A study of Mus musculus with 26 samples.

Results

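In 3T3-L1 adipocytes, 2820 genomic sites carried a peak of the corepressor NCOR both before and after rosiglitazone and carried no peak of any coactivator or transcription factor that was mapped beside it. They were found by joining the 200 bp peak windows of the untreated and the rosiglitazone NCOR list wherever windows overlapped by at least 1 bp, which gave 34703 NCOR sites. Of these, 18899 were in both lists, and are called persistent here. A persistent site was kept if none of its windows overlapped a peak of the 13 lists for MED1, CBP, p300, CEBPa, CEBPb, ATF2, JUND and FOSL2. The kept sites, called NCOR-alone sites below, made up 14.9% of the persistent sites (95% Wilson interval 14.4 to 15.4) and 8.13% of all NCOR sites. Over all NCOR sites, persistent or not, 54.5% were in both lists and 27.4% overlapped none of the other 13 lists. The sites were thus chosen by presence in the 2 NCOR lists and by overlap with the others, so these counts are a description and carry no test.

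3T3-L1 is a mouse fibroblast line that turns into fat cells in culture under dexamethasone, insulin and 3-isobutyl-1-methylxanthine, and all groups shared that treatment. Mature cells received either no treatment or rosiglitazone at 1 µM in DMSO, a drug that activates the nuclear receptor PPARγ. The series has 26 samples, of which 15 ChIP-seq libraries came with 1 peak list each. NCOR, CBP and p300 had 1 untreated and 1 rosiglitazone list, MED1 had 2 of each, and the 5 transcription factors had 1 untreated list each. Factor peaks after rosiglitazone were therefore not assessed, and no list covers PPARγ or another nuclear receptor. The 10 GRO-seq samples and the input were not analysed here. The NCOR antibody was a rabbit serum made in the authors' laboratory. Peak names in the NCOR rosiglitazone list carry a tag of 30 min, and those of MED1 rosiglitazone replicate 2 a tag of 1 h, while the labels give no time for ChIP-seq. The lists held 4656 to 28491 peaks, with 25136 for NCOR untreated and 28491 for NCOR rosiglitazone. Read depth is unknown, and a site absent from a list was not called there, which does not show that the protein was absent. With 1 NCOR library per condition, no value below tests an effect of rosiglitazone on NCOR. The lists name no genes, so the adipocyte label was not checked against marker genes.

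NCOR is a scaffold that nuclear receptors without an activating ligand, and other repressors, bind to bring histone deacetylase HDAC3 to chromatin. CBP and p300 are acetyltransferases that place the acetyl marks which such deacetylases remove, and MED1 is the Mediator subunit through which many nuclear receptors contact RNA polymerase II. CEBPa and CEBPb drive fat cell differentiation, JUND and FOSL2 belong to the AP-1 family, and ATF2 is another basic leucine zipper protein. In adipocytes NCOR is known as a corepressor of PPARγ, and ligand binding favours the exchange of corepressor for coactivator on the receptor.

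Of the 18899 persistent NCOR sites, 11787 (62.4%) overlapped peaks of at least 3 of the 8 other proteins. Of the 16079 persistent sites that were not NCOR-alone, 11652 overlapped both a coactivator and a factor peak, 1841 a coactivator only and 2586 a factor only. Of these 16079, 10480 (65.2%) overlapped 4 or more of the 13 lists, of which MED1 has 4 and CBP and p300 have 2 each. A single list was the only one to overlap 1748 sites (10.9%). ATF2 did so most often, at 484 sites, followed by p300 after rosiglitazone at 229, CBP untreated at 182 and CEBPb at 171. Of the 13 lists, ATF2 also overlapped the most persistent sites, 10816 or 57.2%, and MED1 untreated replicate 2 the fewest, 3142 or 16.6%. The 2586 sites with a factor only resemble the NCOR-alone sites in lacking MED1, CBP and p300, and serve below as the closest comparison. The rest of that comparison comes from NCOR sites in 1 list only that overlapped none of the 13 lists, of which 2533 were in the untreated and 4158 in the rosiglitazone list.

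NCOR-alone sites were mostly weak NCOR peaks, with a median rank below the middle of each list. The authors' peak score ranks peaks within a list, and a percentile here is a peak's place in its own NCOR list from lowest to highest. The median percentile of NCOR-alone sites was 39.6 in the untreated list (quartiles 20.2 and 58.6) and 42.0 in the rosiglitazone list (24.6 and 61.0). Their median scores were 1.52 and 1.58, where the lists begin at 1.04 and 1.02 and reach 20.65 and 24.10. Persistent sites with a factor only lay a little higher, at medians of 43.5 and 50.8, those with a coactivator only at 53.3 and 58.0, and those with both at 70.4 and 74.5. NCOR sites of 1 list with no other peak lay lower, at 20.2 in the untreated and 17.7 in the rosiglitazone list. At the lowest listed score were 191 NCOR-alone sites (6.77%) in the untreated list and 189 (6.70%) in the rosiglitazone list. Over all NCOR sites these shares were 5.755% and 6.63%, and over all other persistent sites 2.49% and 1.87%. Among the sites in 1 list only with no other peak they were 18.2% and 19.4%. Both lists had NCOR-alone sites above the 90th percentile, 46 (1.63%) in the untreated and 65 (2.30%) in the rosiglitazone list. Of all persistent sites, 13.1% and 14.9% were above it. The rule did not use scores, but sites in a single library are not replicates, so these differences were not tested.

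**Figure D1:**
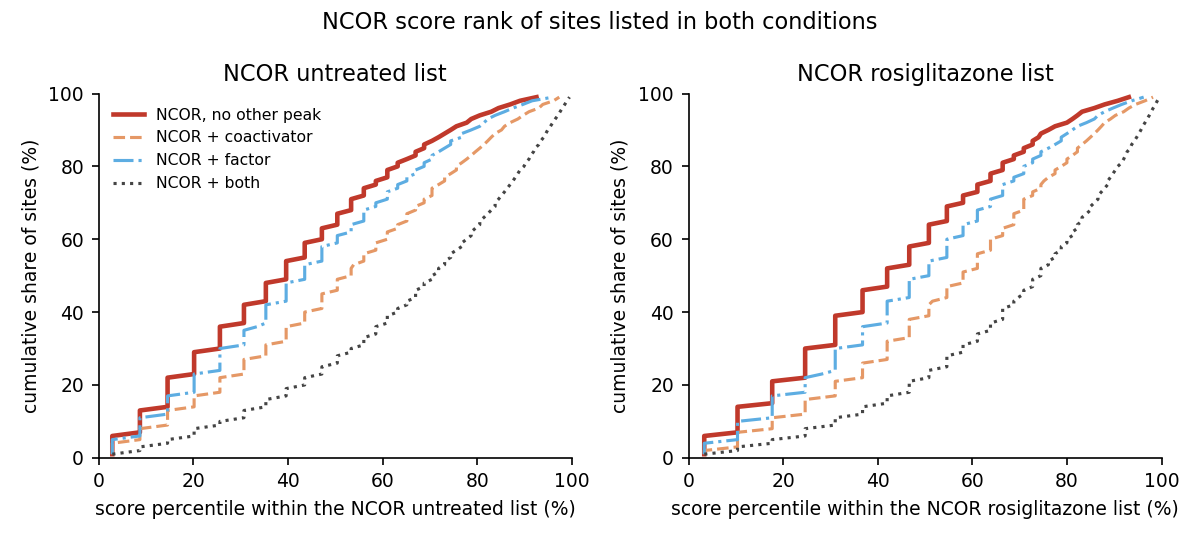
Cumulative share of persistent NCOR sites (vertical axis, %) by score percentile within the NCOR untreated list (left) and rosiglitazone list (right). The solid red curve of NCOR-alone sites lies left of the curves for sites with a factor, a coactivator or both, with medians of 39.6 and 42.0 against 70.4 and 74.5 for sites with both.

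Seen from the score, the share of persistent sites that were NCOR-alone fell from the weak to the strong end of both lists. In the lowest 10% of the untreated list it was 31.1% (95% Wilson interval 28.6 to 33.7), in the fifth such band 19.8%, and in the highest 10% it was 1.86% (1.40 to 2.47). The same bands of the rosiglitazone list held 38.6% (34.4 to 42.95), 20.7% and 2.30% (1.81 to 2.93). Sites with both a coactivator and a factor made up 91.2% and 90.1% of the highest bands. In each of 4 score bands of both lists, the share free of the other proteins was lower among persistent sites than among NCOR sites of 1 list. Scores were not matched within a band, and persistent sites ranked higher over each list, at medians of 61.0 and 63.8 against 25.6 and 24.6. A persistent site also joins at least 2 windows, so it usually has more bases that can overlap another peak. The difference was not tested. In the lowest 25% of the untreated list 30.5% of persistent sites (28.8 to 32.2) and 49.0% of untreated-only sites (47.2 to 50.7) had no other peak, and in the highest 25% the shares were 4.52% (4.03 to 5.07) and 17.8% (12.5 to 24.6). The rosiglitazone list gave 31.3% (29.6 to 33.1) and 52.2% (50.9 to 53.6) in the lowest 25% and 4.59% (4.12 to 5.12) and 13.6% (10.0 to 18.2) in the highest. Intervals cover counting error only, and neighbouring sites are not independent.

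**Figure D2:**
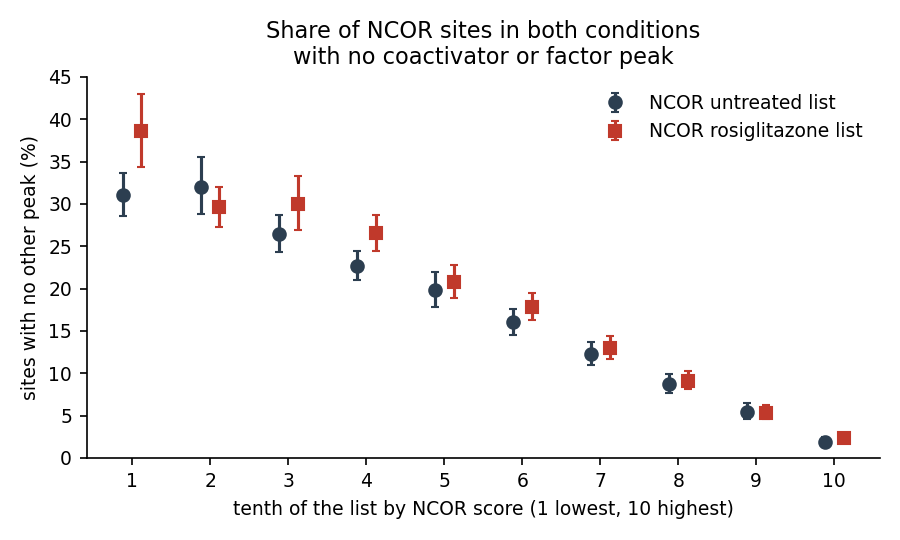
Share of persistent NCOR sites that were NCOR-alone (vertical axis, %) in 10 bands of the untreated (circles) and rosiglitazone (squares) NCOR list by score percentile, with 95% Wilson intervals. The share declines from 31.1% and 38.6% in the lowest band to 1.86% and 2.30% in the highest.

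Rank in one NCOR list went with rank in the other. Across the 2820 NCOR-alone sites Spearman's rho between the percentiles was 0.54, given as a description since the sites share the same 2 libraries. It was 0.61 for sites with a factor only, 0.67 with a coactivator only and 0.82 with both, which spread over a wider range of scores. Of the NCOR-alone sites, 182 (6.45%) were in the top 25% of both lists and 415 (14.7%) in the bottom 25% of both. Over all persistent sites these shares were 26.9% and 6.16%, and over sites with a factor only 9.2% and 10.6%. The joining of overlapping 200 bp windows itself holds the 2 NCOR peaks of a persistent site close in position, in every class. In NCOR-alone sites their centres lay a median of 28 bp apart (quartiles 12 and 49), and 158 sites (5.60%) had them over 100 bp apart. The medians were 28 bp for sites with a coactivator only, 27 bp with a factor only and 26 bp with both. Below the 50th percentile of mean score all classes lay between 31 and 33 bp. Above the 75th, the 237 NCOR-alone sites had a median offset of 16 bp (order-statistic 95% interval 14 to 18), against 20 bp (17 to 22) for the 317 sites with a factor only, 22 bp (19 to 25) for the 379 with a coactivator only and 22 bp (21 to 23) for the 5143 with both. The intervals of NCOR-alone and factor-only sites overlap. A larger offset also widens the stretch that must miss the 13 other lists, so the rule can favour small offsets among NCOR-alone sites. Its part in these offsets was not tested.

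**Figure D3:**
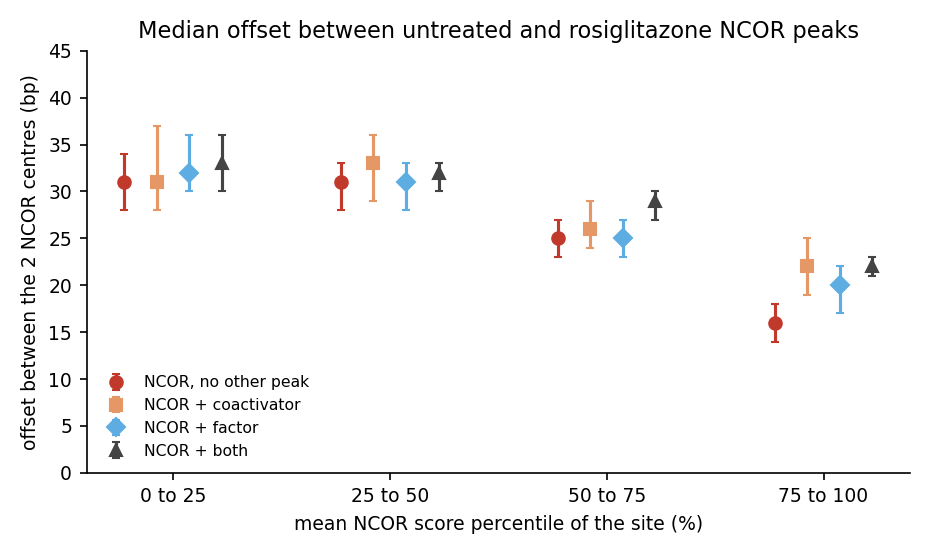
Median distance between the centres of the untreated and rosiglitazone NCOR peaks of a site (vertical axis, bp) in 4 bands of mean score percentile, by class of persistent site, with 95% order-statistic intervals. All classes are at 31 to 33 bp in the lower bands, and in the highest NCOR-alone sites (circles) are at 16 bp and sites with a factor only at 20 bp.

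The strongest NCOR-alone site, on chromosome 2 (mm8, 77779261 to 77779474), had scores of 12.91 untreated and 19.92 after rosiglitazone and was above the 99th percentile of both lists. Its nearest coactivator peak was one of CBP after rosiglitazone, 31.6 kb away, and its nearest factor peak one of FOSL2 at 17.3 kb. The next in rank, on chromosome 1 from 181679372 to 181679573, scored 7.46 and 9.03, with p300 at 5.10 kb and ATF2 at 2.30 kb. On chromosome 9 from 3000315 to 3000521 a site scored 7.11 and 8.38, and its nearest coactivator peak was 258.4 kb away. None of the other 13 lists had a peak below position 3258752 on that chromosome, and the input was not examined there. All 3 ranked high in both conditions, and none of them had a coactivator peak within 5 kb.

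Coactivator peaks were nearer to most of the sites that followed in rank. That on chromosome 16 from 93481388 to 93481606 scored 8.63 untreated and 5.58 after rosiglitazone, and had p300 and ATF2 peaks 638 and 627 bp away. On chromosome 10 from 79340330 to 79340537 the scores were 6.70 and 6.05, and CBP was 2.79 kb away. On chromosome 6 from 120492154 to 120492364 they were 5.18 and 9.03, with p300 at 12.6 kb. The site on chromosome 12 from 113118869 to 113119112 scored 6.91 and 5.58, with CBP and CEBPa both at 3.38 kb. The other 3 of the 10 highest began at 118201922 on chromosome 2 (7.04 and 5.03), 94846526 on chromosome 10 (4.97 and 6.61) and 31353772 on chromosome 13 (5.04 and 6.24). Of these 10 sites 6 had a coactivator peak within 10 kb, and their 2 NCOR centres were 1 to 44 bp apart. At the other end, 35 sites were at the lowest listed score in both lists, among them 2 on chromosome 1 at 23210144 and 193441303 and 1 on chromosome 10 at 43229335. The nearest coactivator peaks to these 3 were 10.2, 2.68 and 22.4 kb away.

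NCOR-alone sites lay a median of 8571 bp from the nearest MED1, CBP or p300 peak, measured between centres (order-statistic 95% interval 7743.5 to 9300.5, quartiles 2084 and 26720). The rule itself fixes only that windows share no base. Within 1 kb of a coactivator peak were 436 sites (15.5%, Wilson interval 14.2 to 16.8), within 10 kb 1524 (54.0%, 52.2 to 55.9), and beyond 100 kb 156 (5.53%). The closest comparison classes gave medians of 10102 bp (9204.0 to 10895.5) for persistent sites with a factor only, 7047 bp (6233.0 to 7927.0) for untreated-only and 8798 bp (8144.0 to 9361.0) for rosiglitazone-only sites with no other peak. The interval of the NCOR-alone median overlaps those of all 3 classes, while some shares lay further apart. Within 10 kb were 49.8% of sites with a factor only (47.9 to 51.7), 57.0% of untreated-only (55.0 to 58.9) and 52.8% of rosiglitazone-only sites (51.3 to 54.35), and within 1 kb 13.3% (12.05 to 14.7), 20.45% (18.9 to 22.1) and 16.7% (15.6 to 17.85). None of these differences was tested. Factor peaks were nearer than coactivator peaks, at a median of 4736 bp (4285.5 to 5093.5), with 97686 peaks in the 5 factor lists against 79140 in the 8 coactivator lists. The coactivator lists repeat 3 proteins over conditions and replicates, so their total counts many positions more than once. The 15383 and 9515 CBP peaks, for example, joined into 17003 sites. A factor peak lay within 10 kb of 69.4% of NCOR-alone sites. That share was 72.2% for untreated-only and 68.0% for rosiglitazone-only sites with no other peak. Of NCOR-alone sites 735 (26.1%) had no peak of any of the 8 proteins within 10 kb, 249 (8.83%) had all 8, and 29 (1.03%) had none within 100 kb. Counts over all 8 proteins were not made for other NCOR sites, so they are not shown to be particular to this class.

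The median percentile ran from 35.3 to 46.6 over bands of that distance. The 436 sites within 1 kb of a coactivator peak had median percentiles of 43.5 untreated and 46.6 after rosiglitazone. The 1088 sites at 1 to 10 kb had 39.6 and 42.0, the 900 at 10 to 50 kb had 35.3 and 36.8, and the 396 beyond 50 kb had 35.3 and 42.0. At the edge of the rule, 71 NCOR-alone sites had fewer than 50 bases between their windows and the next peak, with median percentiles of 43.5 and 36.8. Another 91 persistent sites missed the rule by an overlap of 50 bases or fewer, with medians of 47.2 and 46.6. Touching without overlap were the site on chromosome 19 from 8808696 to 8808922 (p300 untreated) and that on chromosome 6 from 91629181 to 91629394 (MED1 rosiglitazone replicate 2). On chromosome 15 at 54942401, chromosome 16 at 84717258 and chromosome 13 at 90214473 the gaps were 1, 2 and 3 bases, to MED1, CBP and p300 peaks.

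The most remote NCOR-alone site was on chromosome X from 57086118 to 57086352, 2017.1 kb from a coactivator peak and with no other NCOR site within 100 kb. It scored 1.45 untreated and 1.21 after rosiglitazone. Those on chromosome 3 from 16375069 to 16375428 (1.73 and 1.21) and chromosome X from 140762212 to 140762416 (1.52 and 1.49) lay 1540.4 and 1430.6 kb away. Stronger among the 5 most remote was the site on chromosome 7 from 62299043 to 62299254, at 1456.6 kb, which scored 2.49 and 2.51 and was at the 73.1 and 72.7 percentiles. The fifth, on chromosome 19 from 14665470 to 14665682 (1.10 and 1.21), was 1306.2 kb from a coactivator peak but 21.3 kb from one of CEBPb.

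**Figure D4:**
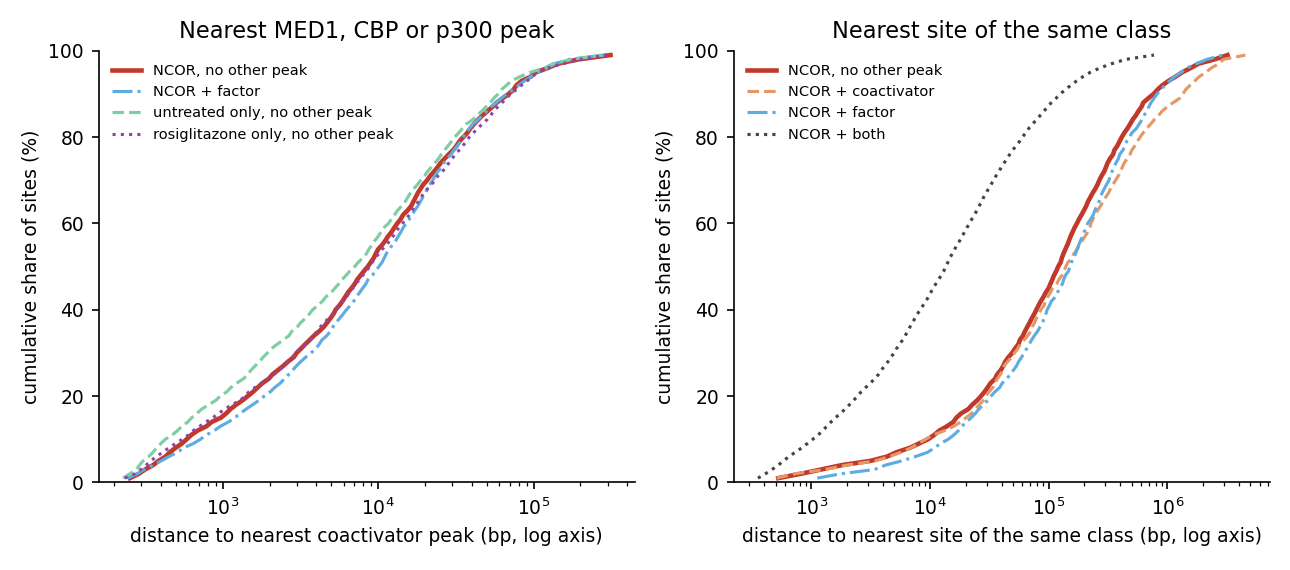
Left, cumulative share of sites (vertical axis, %) by distance to the nearest MED1, CBP or p300 peak (bp, log axis) for NCOR-alone sites and the 3 classes nearest to them, with medians of 8571 bp for NCOR-alone sites and 7047 to 10102 bp for the others. Right, the same for the nearest site of the same class, by class of persistent site, a distance that depends on class size. The 2820 NCOR-alone sites have a median of 120105 bp and the 2586 with a factor only one of 150586.8 bp. The 11652 sites with a coactivator and a factor have one of 13555.5 bp.

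Proximity to each protein ran broadly with the length of its list. A peak within 10 kb was found for 12.1% of NCOR-alone sites in the MED1 list with 4656 peaks and for 48.9% in the ATF2 list with 24192. CBP was within 10 kb of 36.3% of them untreated (34.6 to 38.1) and 24.8% after rosiglitazone (23.2 to 26.4), while its lists held 15383 and 9515 peaks. For p300 the shares were 36.4% (34.7 to 38.2) and 35.0% (33.2 to 36.7), with 15007 and 13746 peaks. The part of list length in these shares was not tested. CEBPa was within 10 kb of 29.6% of the sites, CEBPb of 34.4%, FOSL2 of 40.6% and JUND of 44.3%. Untreated-only sites with no other peak had 32.4%, 36.5%, 42.8% and 46.98%, in the same order. Rosiglitazone-only ones had 28.8%, 33.5%, 40.9% and 43.1%. For CBP, untreated and after rosiglitazone, these classes had 39.4% and 26.65%, then 34.75% and 24.99%, and factor-only sites 33.3% and 22.2%. For p300 they had 39.8% and 37.3%, then 34.9% and 32.8%, then 31.7% and 29.3%. Such shares were thus not particular to NCOR-alone sites, and class differences were not tested. The coactivator sites near NCOR-alone sites divided between conditions much as all sites of that protein did. Where a CBP site lay within 10 kb, the nearest was untreated-only at 46.2% (43.2 to 49.2), in both at 44.8% and rosiglitazone-only at 9.02% (7.45 to 10.9), against 44.1%, 46.4% and 9.53% of all CBP sites. For p300 the shares were 26.9% (24.5 to 29.4), 48.9% and 24.3% (21.95 to 26.7), against 29.1%, 48.4% and 22.5%.

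**Figure D5:**
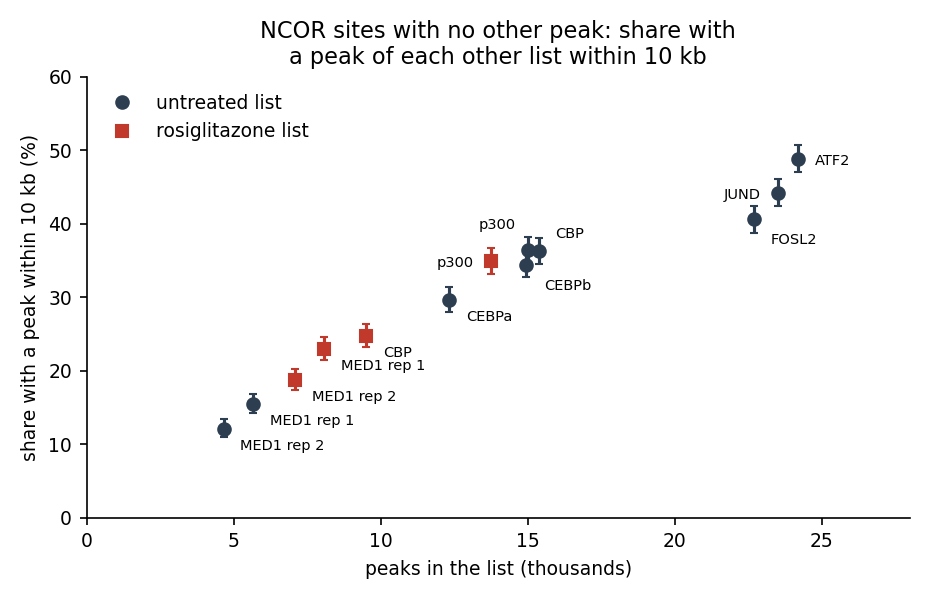
Share of the 2820 NCOR-alone sites with a peak of each other list within 10 kb (vertical axis, %) by the number of peaks in that list (horizontal axis, in units of 1000), for untreated (circles) and rosiglitazone (squares) lists, with 95% Wilson intervals. The shares run from 12.1% for MED1 untreated replicate 2 to 48.9% for ATF2.

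MED1, the only protein with replicates, gave higher shares of NCOR-alone sites in its rosiglitazone lists. Within 10 kb it was found at 15.5% and 12.1% of them in the untreated lists and at 23.0% and 18.7% in the rosiglitazone lists, so the groups did not overlap. The means were 13.8% ± 2.38 (SD, n = 2) and 20.9% ± 3.03 (SD, n = 2), a difference of 7.06 percentage points. The two-sided exact permutation test gave p = 0.333, and 2 against 2 lists cannot go lower. NCOR-alone sites were also chosen for overlapping no peak of these same MED1 lists. The test is therefore not independent of the rule, and no conclusion is drawn from it. The rosiglitazone lists were also longer, at 8069 and 7104 peaks against 5660 and 4656. Reduced to 4656 peaks each, the lists differed by 0.922 points. Persistent sites with a factor only had MED1 within 10 kb at 13.3% and 11.3% untreated and 17.0% and 16.9% after rosiglitazone. Untreated-only sites with no other peak had 19.0% and 13.3%, then 24.3% and 18.9%. Rosiglitazone-only sites with no other peak had 16.7% and 13.3%, then 22.2% and 18.6%. The higher shares in the rosiglitazone lists were thus not particular to NCOR-alone sites, and differences between the classes were not tested. The labels do not name separate cultures for the MED1 replicates, whose spread may therefore be technical only.

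NCOR-alone sites were scattered. The median distance from one to the next nearest was 120105 bp (order-statistic interval 111505 to 128810, quartiles 36742 and 328172), and 1551 (55.0%) had none within 100 kb. Classes of like size had medians of 139436.5 bp for the 1841 sites with a coactivator only, 150586.8 bp for the 2586 with a factor only and 118585 bp for the 2533 untreated-only sites with no other peak. The 11652 sites with both, a class of more sites, had a median of 13555.5 bp. Linking neighbours within 10 kb left 2528 NCOR-alone sites single and put 292 (10.4%) into 142 groups, of which 135 were pairs, 6 had 3 sites and 1 had 4. Other NCOR sites were nearer. The nearest NCOR site of any class was a median of 4920 bp away (4526.5 to 5481.5), and within 1 kb at 620 sites (22.0%). Over all NCOR sites the same median was 4411 bp (4292 to 4538), and 23.7% had another within 1 kb. The site nearest to an NCOR-alone site had both a coactivator and a factor at 900 (31.9%). It was another NCOR-alone site at 240 (8.51%), where these classes made up 33.6% and 8.13% of all NCOR sites.

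The group of 4 lay on chromosome 17 from 79791626 to 79811877. Its highest site, at 79801052, scored 2.28 untreated and 1.21 after rosiglitazone, and a CBP untreated peak lay 982 bp from the site at 79804254. Of the 6 groups of 3, 4 were on chromosome 10 from 93920926 to 93926812, chromosome 15 from 38232984 to 38243955, chromosome 2 from 146243418 to 146261175 and chromosome 5 from 121971607 to 121974144. The last was 2538 bp long, and its highest site, at 121971607, scored 4.63 and 4.56 and ranked 27th of all NCOR-alone sites. In the chromosome 15 group the highest site, at 38243747, scored 3.45 and 2.33. By chromosome, the share of persistent sites that were NCOR-alone ran from 12.2% on chromosome 16 (Wilson interval 9.92 to 14.9) to 18.2% on chromosome 9 (15.8 to 20.9). Chromosome 2 held the most, 254, and chromosome X the fewest, 37 of its 204 persistent sites (18.1%, 13.5 to 24.0).

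The number of NCOR-alone sites depends, by construction, on how many peaks of each list are kept. Keeping the upper 50% of each of the 13 other lists gave 6261 sites, 33.1% of the persistent ones, a median of 1637 bp from a coactivator peak. Keeping the upper 50% of each NCOR list gave 671 sites, 6.72% of the persistent ones.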

How the data were processed

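The authors deposited 1 list of 200 bp peak windows per ChIP-seq library, with a peak score per window, and replicates were not pooled. The submitters' processing notes name Bowtie, bedtools and HOMER and build mm8; their versions, the peak thresholds, whether input was used and what the deposited score was divided by are not given in these sources. Scores served only for ranks and thresholds inside 1 list, with ties at their mean rank, and a site with several peaks took its highest. Coordinates count from 1. No genome or annotation of mm8 was used here, so sequences, motifs and genes were not analysed. Distances ran from the middle of a site to the centre of a peak. Shares carry 95% Wilson intervals and medians 95% order-statistic intervals, both covering counting error only. MED1 shares were compared by an exact permutation test. The members, lists and settings were chosen with earlier results of these data known. Named regions, none on chromosome 18, were the 10 highest and 3 lowest by mean percentile, the 5 nearest to and 5 farthest from a coactivator peak, and the 5 largest groups, ties by position. The code was tested on simulated data. Computations used Python 3.11.15, numpy 2.4.6 and scipy 1.17.1.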

Additional observations from a re-analysis of the deposited data

How the results depend on the processing

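Read depth is unknown, so how many sites were missed in the shorter lists cannot be told. With the upper 50% of each NCOR list there were 671 NCOR-alone sites (6.72% of persistent sites), 5797 bp from a coactivator peak and 580870 bp apart at the median. With the upper 50% of the other lists there were 6261 (33.1%), at a median percentile of 43.1, 1637 bp from a coactivator peak and 39572 bp apart. With no other peak within 1000 bp the share was 10.8%, the distance 12792.5 bp and the spacing 181374.5 bp. An overlap of at least 100 bp gave a share of 16.3% and a distance of 7703.5 bp. NCOR lists at equal length gave 13.8% and a spacing of 137763.5 bp, and 1 site per group 14.2% and 143066.8 bp. Each of these settings changes which sites enter by construction. Leaving out each MED1 replicate in turn gave 2846 to 2923 sites, a share of 15.1% to 15.5%, a median percentile of 39.1 to 40.1, a distance of 7757.5 to 8387.2 bp, a spacing of 116018 to 117761.5 bp and a MED1 difference of 4.91 to 9.20 points. That difference was 4.50 points within 5 kb, 10.5 within 50 kb and 0.922 with MED1 lists at equal length, above 0 in each. With the replicate number as a block it was 7.06 points (exact permutation p = 0.5, and 2 pairs cannot go lower). The labels do not say that the numbers pair the libraries. The same MED1 lists helped to choose the sites, so no conclusion is drawn from this p-value.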

Other observations

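The surroundings of the 5 strongest NCOR-alone sites were tabulated, and those of the first and the third are described here, chosen after their values were seen. Within 100 kb of the strongest, on chromosome 2 at 77779261, were 5 other NCOR sites. Of these, 4 were in the rosiglitazone list only, at 77706791, 77723654, 77726899 and 77778903, with scores of 15.73, 14.80, 20.66 and 14.52, and none overlapped a peak of the other lists. The last of them lay 365 bp from the NCOR-alone site. The remaining site, at 77796622, was in both lists with scores of 13.88 and 17.31 and overlapped at least 1 other list. These 4 were all the sites of that class (rosiglitazone list only, no other peak) that scored 5 or more. On chromosome 9, 2 further NCOR-alone sites, at 3001327 (scores 2.56 and 3.72) and 3002454 (2.83 and 4.09), lay 1008.5 and 2136.5 bp from the one at 3000315. The 3 form a group 2341 bp long, the shortest of the 6 groups of 3. The lowest position on chromosome 9 in any of the other 13 lists was 3258752, and the input was not examined there.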
